A study of Mus musculus with 3 samples.

Results

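The MHC class II presentation genes described here were H2-Aa, H2-Ab1, H2-Eb1, H2-DMa, H2-DMb1, Cd74 and Ciita. They were taken by symbol from the gene rows of the 3 count matrices, and all 7 were found among the 31053 genes listed. The study profiled single cells of the calvaria, the roof of the skull, from C57BL/6 mice aged 8 weeks, to describe bone at different stages of invasion by a head and neck squamous cell carcinoma. In the scratch-positive (invasive stage) group, HNM007 tumour cells were implanted after the bone surface had been scratched with a needle, a step that takes away the periosteum, the fibrous sheath that covers bone. In the scratch-negative (pre-invasive stage) group, HNM007 cells were implanted on intact bone. The control group was free of tumour. Calvariae with tumour were collected 1 week later with the mass itself cut away, and live CD45+ and CD45– cells were mixed in equal parts before capture. CD45 is the surface protein that marks blood-derived cells, so the balance between immune and other cells was set in the protocol. Each group was 1 library, and the sources used here do not say how many mice it held. No test between groups was therefore possible.

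Class II molecules carry peptides of ingested proteins to the cell surface, where CD4 T cells read them. The alpha and beta chains meet in the endoplasmic reticulum, where the invariant chain CD74 fills their groove and steers them to endosomes. There CD74 is cut to a short remnant, and H2-DM exchanges the remnant for peptide. Dendritic cells, macrophages and B cells express these genes at rest, and many other cells, fibroblasts and epithelial cells among them, can be made to express them by interferon-gamma. CIITA is the coactivator that switches the whole group on. It does not bind DNA itself, but docks on factors assembled on short upstream elements, the X and Y boxes.

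On the GRCm38 assembly, 5 members lay in the class II region of chromosome 17. H2-Ab1, the beta chain of I-A, lay at chr17:34257689-34269419, and H2-Aa, its alpha chain, at chr17:34282744-34287823 on the reverse strand. H2-Eb1, the beta chain of I-E, lay at chr17:34305867-34316674. C57BL/6 mice make no I-E alpha chain, so the H2-Eb1 product has no partner there. H2-DMa and H2-DMb1, the chains of the peptide editor H2-DM, lay at chr17:34119541-34139101 and chr17:34153072-34160230. Ciita lay at chr16:10480059-10528418. The annotation placed Brd2 over H2-DMa, Gm20513 over H2-Eb1 and Dexi over Ciita, each on the opposite strand, and all 3 were listed in the files. Whether the counting used strand is not given in the sources used here, so reads from such partners may not be told apart. H2-DMb1 and its neighbour H2-DMb2 are close copies, and the counting could have split or dropped their reads.

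The promoter sequences show the elements through which CIITA acts. RefSeq promoters (GRCm38.p6) were at hand for 4 of the 7 members, with 5 start sites. The 140 bases before the start are printed for the 3 members in which a listed element was matched in them, 5′ to 3′ on the gene's strand, with matched letters in capitals. H2-Eb1 is at chr17:34305727-34305866 (+), H2-DMb1 at chr17:34153051-34153190 (+) and H2-Aa at chr17:34287824-34287963 (–).
H2-Eb1: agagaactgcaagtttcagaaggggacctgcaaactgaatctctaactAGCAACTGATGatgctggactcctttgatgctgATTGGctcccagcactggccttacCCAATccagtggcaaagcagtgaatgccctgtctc
H2-DMb1: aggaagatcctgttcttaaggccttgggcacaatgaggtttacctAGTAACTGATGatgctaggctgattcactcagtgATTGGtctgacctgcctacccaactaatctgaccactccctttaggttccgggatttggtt
H2-Aa: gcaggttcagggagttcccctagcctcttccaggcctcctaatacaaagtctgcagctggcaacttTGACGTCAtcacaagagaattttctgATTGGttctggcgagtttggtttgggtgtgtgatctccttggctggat
In H2-Eb1 the X box core, searched like the others on both strands, stood at −92 to −82 from the start, and the Y box ATTGG began at −59, 33 bases from the first base of the core. H2-DMb1 had the X box core at −95 to −85 and the Y box at −61, 34 bases from first base to first base. H2-Aa held TGACGTCA, the cyclic AMP response element, at −74 to −67 and ATTGG at −48, 26 bases by the same measure. The first start of H2-DMa had none of the 3, and its second had ATTGG at −198. Over the 250 bases before the start, the X box core was found in 146 of 32851 promoters (0.444%), TGACGTCA in 508 (1.55%) and ATTGG in 11120 (33.8%). The X box core with ATTGG beginning at most 40 bases after its first base, each counted on either strand, was found in 8 promoters (0.0244%). Those of H2-Eb1 and H2-DMb1 were among them. These are matches of letters and were not tested for binding.

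The libraries differed widely in depth. After filtering, 8426 scratch-positive, 7590 scratch-negative and 6178 control cells remained, with median unique molecular identifier (UMI) counts of 36427, 11261.5 and 8862 and with 5071, 1896 and 1669 genes per cell. The libraries shared between 16 and 30 cell barcodes, pair by pair. Levels are UMIs summed over the cells of a class per 1000000 UMIs of that class (CPM), with exact 95% Poisson intervals in brackets. Each UMI marks the 3′ end of 1 transcript, so levels were not divided by transcript length. A gene is called higher or lower where the ratio of 2 libraries was at least 1.5-fold and its whole interval lay on that side of 1. The intervals cover counting error only. Clusters were built without the class II genes, so their levels were free to vary within and between the classes. Monocyte/macrophage cells carried Csf1r, Cd68, Adgre1 and C1qa, B-lineage cells Cd79a and Ms4a1, dendritic cells Zbtb46 and, by subset, Flt3, Cd209a or Xcr1, fibroblast/periosteal cells Dcn and Aspn, and tumour cells Krt8, Krt18 and Krt14, all markers of those cell types. The names were given here from such markers and not by the study, so each stands for cells like that type.

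Among the alpha and beta chains, Cd74 and H2-DMa, dendritic cells stood highest, then monocytes and macrophages, then the pooled B-lineage class. Fibroblasts and tumour cells stood below these, in each library that held them. Osteoclasts, described below, are left out of this order. In the scratch-negative library they stood above the pooled B-lineage class for Cd74, H2-Aa and H2-Eb1. The place of the B-lineage class holds only for its pooled stages, which include pro-B and pre-B cells. Immature and mature B cells alone stood above monocytes and macrophages for Cd74 and the alpha and beta chains in each library. Their Cd74 levels are given below. H2-Aa reached 7093.8, 6559.6 and 9740.3 CPM in scratch-positive, scratch-negative and control dendritic cells. H2-Ab1 reached 11160.2, 8976.5 and 10805.2 CPM and H2-Eb1 7262.5, 6284.9 and 9974.0 CPM in the same 3 libraries. The control value rests on 3 dendritic cells and is given for completeness. The invariant chain gene Cd74, at chr18:60803848-60812652, was the most abundant member in dendritic cells, at 15938.3, 15669.5 and 22026.0 CPM. H2-DMa lay at 949.1, 685.6 and 961.0 CPM and H2-DMb1 at 1121.8, 835.0 and 1168.8 CPM. Ciita, the switch, was the scarcest transcript, at 78.0 (64.5 to 93.5), 96.0 (67.3 to 133.0) and 77.9 (16.1 to 227.7) CPM, and these intervals overlap.

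**Figure D1:**
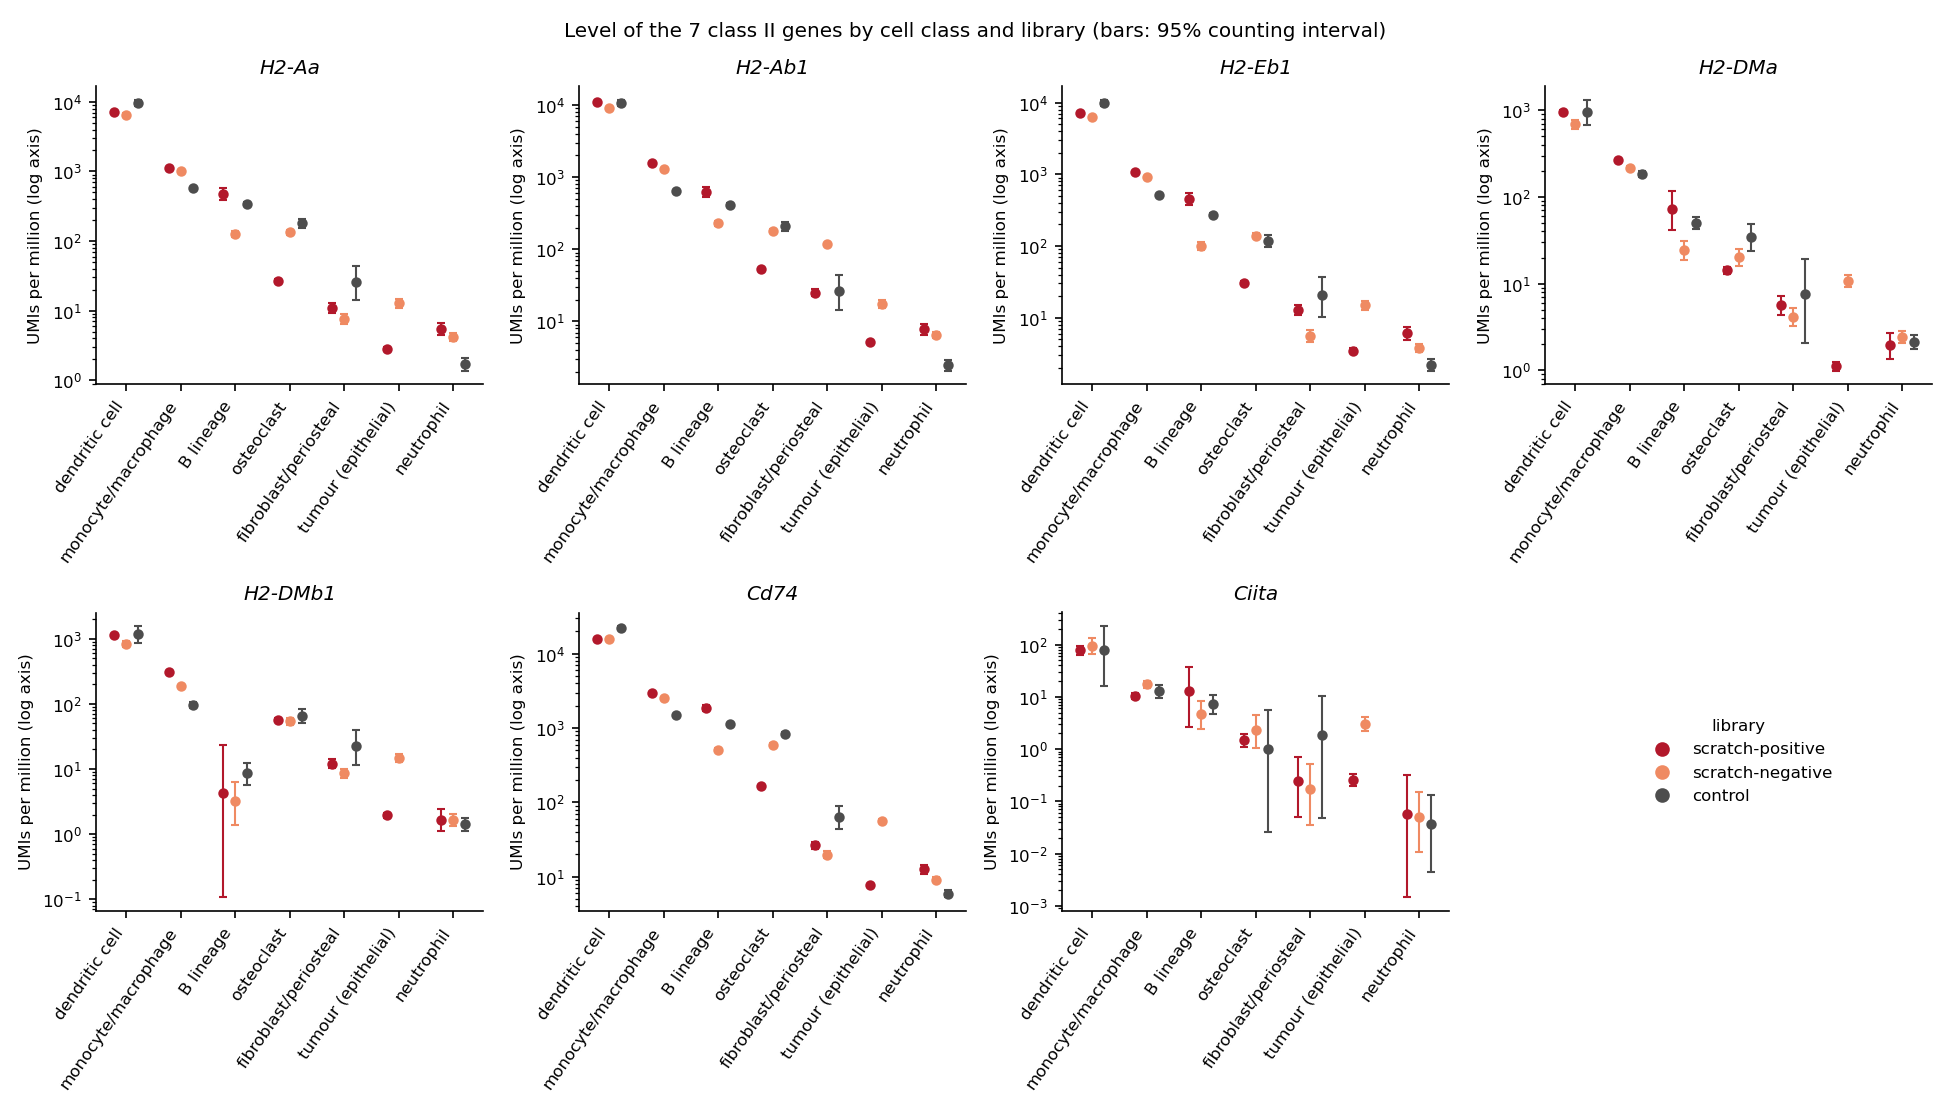
Level in CPM (log axis) of each of the 7 genes in 7 cell classes, with points for the scratch-positive, scratch-negative and control libraries and bars for the 95% counting interval. Dendritic cells stood highest in each panel, and neutrophils stood near the bottom, at 12.6, 9.16 and 5.93 CPM for Cd74. In the H2-DMb1 panel the B-lineage points lie under those of osteoclasts.

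Dendritic cells exceeded monocytes and macrophages for all 7 genes in both libraries where they could be set side by side. In the scratch-positive library the ratio was 7.15 for H2-Ab1, 6.67 for H2-Eb1, 6.39 for H2-Aa and 5.31 for Cd74. It was smaller for the peptide editor, at 3.55 for H2-DMa and 3.64 for H2-DMb1, and 7.37 (5.84 to 9.25) for Ciita. In the scratch-negative library the ratios ran between 3.15 for H2-DMa and 6.97 for H2-Ab1. Dendritic cells thus differed from macrophages more in the chains than in the editor, in both libraries.

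H2-DMb1 broke the order. Control B-lineage cells had 8.69 CPM of H2-DMb1 (5.77 to 12.6), against 96.5 CPM (86.7 to 107.1) in control monocytes and macrophages, a ratio of 0.090. For Cd74 the same ratio was 0.761. Osteoclasts, the bone-resorbing cells of the macrophage lineage, had 57.5, 53.8 and 66.0 CPM of H2-DMb1 in the scratch-positive, scratch-negative and control libraries. These lay above the pooled B-lineage class in each library. Immature and mature B cells alone, given below, did not stand under osteoclasts in the scratch-negative and control libraries, on few UMIs. In the scratch-positive library H2-DMb1 made 0% of their member UMIs. Over 30 profiles of a class in a library, in 13 classes, the profile of H2-DMb1 correlated with that of Cd74 at r = 0.628, the lowest value of the 21 pairs, and with H2-DMa at 0.732. H2-Aa and Cd74 gave the highest value, 0.986. These correlations describe profiles that share libraries and depth.

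Neutrophils, which should hold little class II, served as a reference for free RNA in CPM. In deeper cells, such as fibroblasts and tumour cells, the same free RNA would make a smaller CPM, so the reference is not their floor. The neutrophil Cd74 level was 12.6 CPM (11.0 to 14.4) in the scratch-positive, 9.16 CPM (8.40 to 9.97) in the scratch-negative and 5.93 CPM (5.30 to 6.62) in the control library. Of the 7 members, 4 (H2-Aa, H2-Ab1, H2-Eb1 and Cd74) were higher in scratch-positive than in control neutrophils, where 15.2% of all genes tested were, and the same number in scratch-negative against control, where 5.15% were. The levels remained under 13 CPM throughout, with Ciita at 1, 3 and 2 UMIs in all. The median depths of neutrophils were 8447.5, 10021.5 and 8648 UMIs.

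Monocytes and macrophages take up debris and pathogens and present them, and they gave the largest share of class II UMIs. They held between 48.4% and 70.0% of the UMIs of each member in the scratch-positive library, between 62.8% and 72.0% in the scratch-negative library and between 39.1% and 54.7% in control. The class had 767, 613 and 324 cells, with median depths of 21498, 12886 and 9052.5 UMIs. Different subsets held most of it: cells led by C1q genes made 413 of the 767 scratch-positive cells, while monocytes made 450 of 613 scratch-negative and 297 of 324 control cells.

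The alpha and beta chains stood higher in both tumour libraries than in control. H2-Aa had 1110.2 CPM (1096.1 to 1124.5) in scratch-positive, 1011.6 CPM (994.3 to 1029.1) in scratch-negative and 569.4 CPM (545.2 to 594.3) in control cells. H2-Ab1 had 1560.5, 1288.6 and 644.6 CPM, and H2-Eb1 1089.5, 907.8 and 509.6 CPM. The 2 tumour libraries lay close to each other and no interval of theirs reached the control interval. Against control, the scratch-positive ratio was 2.42 for H2-Ab1 (2.32 to 2.53), 2.14 for H2-Eb1 and 1.95 for H2-Aa. The scratch-negative ratio was 2.0 for H2-Ab1 (1.91 to 2.09) and 1.78 for both H2-Eb1 and H2-Aa.

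The invariant chain, which guards the groove of the new molecule, had the same order. Cd74 had 3000.8 CPM (2977.6 to 3024.2) in scratch-positive, 2523.6 CPM (2496.2 to 2551.2) in scratch-negative and 1510.1 CPM (1470.6 to 1550.4) in control cells. That is 1.99-fold (1.93 to 2.04) in scratch-positive over control and 1.67-fold (1.62 to 1.72) in scratch-negative over control. Its share of the UMIs of the 7 genes was 40.8%, 41.0% and 42.8%.

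The chains of the peptide editor did not move as a pair. H2-DMb1 had 308.6 CPM (301.2 to 316.1) in scratch-positive, 187.2 CPM (179.8 to 194.8) in scratch-negative and 96.5 CPM (86.7 to 107.1) in control cells. The 3 intervals are apart, and H2-DMb1 was 3.20-fold higher in scratch-positive than in control cells (2.87 to 3.57) and 1.65-fold higher than in scratch-negative cells (1.57 to 1.73). H2-DMa had 267.4, 217.6 and 185.4 CPM, a ratio of 1.44 (1.33 to 1.56) between scratch-positive and control cells that missed the 1.5-fold size. H2-DMb2, the close copy of H2-DMb1, had 16.03, 7.54 and 2.45 CPM, in the same order. The lowest H2-DMb2 value rests on 9 UMIs.

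Ciita, the coactivator of the group, did not have the order of the chains. It had 10.6 CPM (9.25 to 12.1) in scratch-positive, 17.3 CPM (15.1 to 19.8) in scratch-negative and 12.8 CPM (9.42 to 17.0) in control cells, from 226, 223 and 47 UMIs. The scratch-positive value was 1.64-fold lower than the scratch-negative value (1.35 to 1.98), and the other intervals overlap. Per 100 UMIs of the 7 genes, Ciita thus gave 0.14, 0.28 and 0.36.

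Counted over the list, 5 of 7 members were higher in scratch-positive than in control monocytes and macrophages and none was lower, where 21.4% of all genes tested were higher. Against control, 5 of 7 were also higher in scratch-negative cells, where 9.32% of genes were. Between scratch-positive and scratch-negative cells, H2-DMb1 was higher, where 28.4% of genes were, and Ciita was lower, where 11.4% were. The median log2 ratio of the 7 members was 0.99, 0.83 and 0.26 in these 3 comparisons, beside 0.09, −0.17 and 0.23 over all genes tested. Both tumour libraries share the same control library. With each subset given equal weight, 1 member was higher and 1 lower in scratch-positive than in control cells, in place of 5 and 0. That setting leans on 12 control C1q cells. Scratch-negative over control, 2 members were higher in place of 5 when cells of up to 20% mitochondrial UMIs were kept, and also when the class II genes took part in the clustering. Scratch-positive over scratch-negative, the number higher ran between 0 and 5 over the settings tried, and Ciita was not lower under 6 of them.

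The shares of cells show how far the signal spread. After thinning each cell to 3000 UMIs, H2-Ab1 was seen in 60.7%, 54.4% and 14.1% of scratch-positive, scratch-negative and control monocytes and macrophages. Without thinning the shares were 77.7%, 64.9% and 17.6%, against 8.14%, 7.51% and 2.38% in neutrophils of the same libraries. Cd74 was seen in 78.2%, 67.6% and 34.4% of thinned cells. H2-DMa, by contrast, was seen in 48.7%, 42.6% and 41.0%, close to each other. UMIs of H2-Aa, H2-Ab1 and H2-Eb1 fell together in 45.1%, 39.4% and 11.1% of thinned cells. The median cell carried 35.2, 23.05 and 3.49 UMIs of the 7 genes per 10000, and the cell at the 90th percentile 257, 175 and 68.2. The control cell at the 75th percentile carried 7.52, so only the upper tail of control cells came near the median of the tumour libraries.

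RNA typical of neutrophils also differed between these groups, in another order. The neutrophil gene S100a8 reached 42695, 105685 and 49442 CPM in the class, and S100a8 and S100a9 made over 5% of the UMIs in 44.7%, 54.8% and 20.1% of its cells. Without those cells, a choice made after seeing the data, the ratios were larger. H2-Ab1 was then 4.27-fold higher in scratch-positive than in control cells (4.01 to 4.54) and 3.87-fold higher in scratch-negative than in control cells (3.63 to 4.14). The count was again 5 of 7 in the scratch-positive comparison, with 23.9% of all genes higher, and 7 of 7 in the scratch-negative comparison, with 11.3% higher. Ciita was then 2.91-fold higher in scratch-negative than in control cells (1.79 to 4.93). H2-DMb1, at 1.30-fold (1.21 to 1.40), no longer counted as higher in scratch-positive than in scratch-negative cells.

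**Figure D2:**
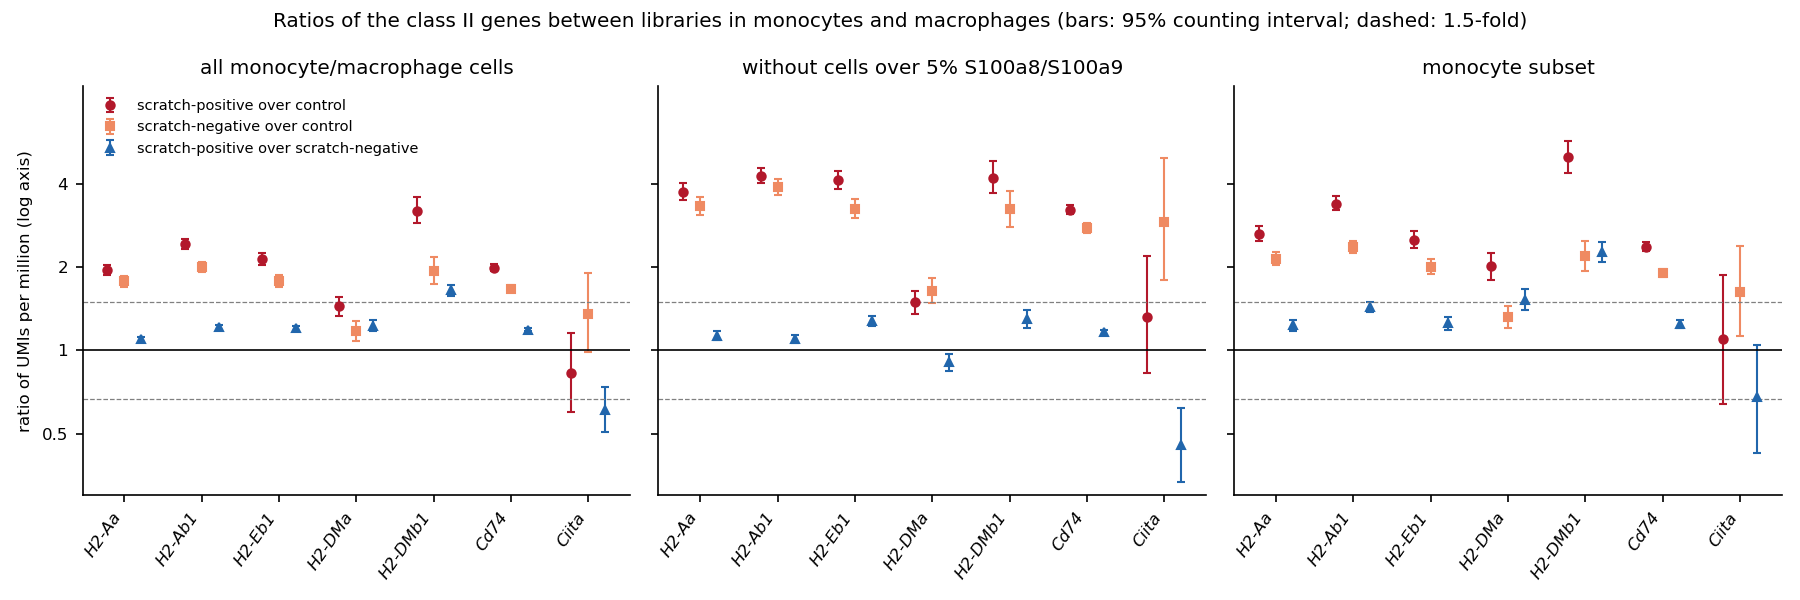
Ratios of CPM (log axis) between libraries for each of the 7 genes, in all monocyte/macrophage cells, without cells over 5% S100a8 and S100a9, and in the monocyte subset; bars are 95% counting intervals and dashed lines mark 1.5-fold. The ratios to control lie above 1 for H2-Aa, H2-Ab1, H2-Eb1, H2-DMb1 and Cd74 in all 3 panels, while Ciita lies below 1 between the 2 tumour libraries.

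Within monocytes alone, identified by Ccr2, Ly6c2 and F13a1, the differences to control were larger than in the whole class. This subset had 183, 450 and 297 cells at median depths of 8147, 10777 and 9143 UMIs, so depth was closer to equal here. H2-Ab1 had 1758.3 CPM (1699.9 to 1818.1) in scratch-positive, 1224.7 CPM (1199.0 to 1250.8) in scratch-negative and 518.8 CPM (494.7 to 543.8) in control monocytes. The 3 intervals are apart, in that order. H2-DMb1 had 448.1, 197.5 and 90.1 CPM and H2-DMa 373.4, 244.9 and 186.0 CPM, so here the editor's chains ran in the same order as H2-Ab1. Scratch-positive over control, 6 of 7 members were higher, with 13.4% of all genes higher, and H2-DMb1 led at 4.97-fold (4.36 to 5.69). Scratch-negative over control, 6 of 7 were higher, with 9.7% of genes higher, and Ciita was among them at 1.62-fold (1.12 to 2.37). Between the tumour libraries, H2-DMb1 was 2.27-fold (2.08 to 2.47) and H2-DMa 1.52-fold (1.40 to 1.66) higher in scratch-positive monocytes, where 16.1% of genes were, and none was lower, where 8.17% were. Cells over 5% S100a8 and S100a9 made 16.4%, 50.7% and 19.5% of the subset.

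Macrophages led by the complement genes C1qa, C1qb and C1qc gave another picture. Their H2-Aa levels were 1114.6 CPM (1098.1 to 1131.3) in 413 scratch-positive cells, 1095.5 CPM (1066.3 to 1125.4) in 110 scratch-negative cells and 2261.9 CPM (2070.8 to 2466.0) in 12 control cells. Cd74 had 3057.3, 2638.1 and 4747.8 CPM. The few control cells were the highest for both, and were too few for a comparison. Between the tumour libraries H2-Aa was level, at a ratio of 1.02 (0.987 to 1.05). H2-DMb1 was 1.75-fold higher in scratch-positive cells (1.62 to 1.88), where 29.4% of genes were, and Ciita 1.61-fold lower (1.22 to 2.11), where 9.39% were. Macrophages led by Arg1, an arginine-degrading enzyme, had 2729.5 CPM of Cd74 in 156 scratch-positive and 2716.9 CPM in 36 scratch-negative cells. Both H2-DM chains were 1.55-fold higher in the scratch-positive cells, where 8.67% of genes were. H2-DMb1 was thus called higher in scratch-positive than in scratch-negative cells within each of the 3 subsets.

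Other genes of the pathway moved unevenly in monocytes and macrophages. Over all genes tested, 21.4% were higher and 16.1% lower in scratch-positive than in control cells, and 9.32% were higher and 1843 of 11494 genes lower in scratch-negative than in control cells. Of 10 genes for antigen processing, 5 were higher and 2 lower in scratch-positive than in control cells, and 4 were higher and 2 lower in scratch-negative than in control cells, so the numbers lower lay near those shares. The cathepsin gene Ctsl had 348 CPM in scratch-positive, 150 CPM in scratch-negative and 90.5 CPM in control cells, and the endosomal protease gene Lgmn 303, 145 and 73.9 CPM. Ctss, the protease that trims the invariant chain, had 1302, 1181 and 1274 CPM, within 1.5-fold. March1, a ligase that sends surface class II to breakdown, had 16.7 CPM in scratch-positive, 31.7 CPM in scratch-negative and 70.4 CPM in control cells, the reverse order of the chains. Of 12 class II transcription factor genes, 3 were higher in scratch-positive and 2 in scratch-negative than in control cells, and none was lower. The numbers higher are near the shares over all genes in the scratch-positive comparison. Rfx5, a subunit of the complex on the X box, had 2.25, 1.48 and 3.0 CPM. Of 16 class I genes, 3 were higher and 4 lower in scratch-positive, and 6 higher and none lower in scratch-negative, each over control. The scratch-positive number higher is again near the share over all genes. Of 10 co-stimulation and maturation genes, 7 could be tested and 2 were higher and 1 lower in scratch-positive than in control cells. Of 4 other class II genes 1 was higher, and of 8 genes for class II receptors on T cells and their regulators 3 were, in the same comparison.

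Over the whole class, the interferon-gamma axis stood highest in the scratch-negative library, but this did not hold within every subset. Of 16 genes, 9 were higher and 1 lower in scratch-positive than in control cells, and 12 were higher and 2 lower in scratch-negative than in control cells. Between the tumour libraries, 1 was higher and 10 were lower in scratch-positive cells, where 28.4% of all genes were higher and 11.4% lower. Within the C1q subset 1 was higher and 7 were lower, where 29.4% and 9.39% of genes were. Of the 15 genes that could be compared within monocytes, 1 was higher and none lower in scratch-positive cells, where 16.1% and 8.17% of genes were, with a median log2 ratio of 0.26. Of 15 within Arg1 macrophages, 4 were higher and 1 lower, where 8.67% and 4.93% were, with a median of 0.57. Monocytes made 183 of 767 scratch-positive and 450 of 613 scratch-negative cells of the class. The guanylate-binding protein gene Gbp2 had 183 CPM in scratch-positive, 438 CPM in scratch-negative and 26.7 CPM in control cells. Irf1, a factor that drives Ciita from its inducible promoter, had 146, 232 and 69.0 CPM. Nlrc5, the class I counterpart of Ciita, had 11.1, 24.7 and 9.0 CPM. Within monocytes Irf1 had 363 CPM in scratch-positive, 303 CPM in scratch-negative and 68.7 CPM in control cells, so there the scratch-positive value was the highest. In the whole class Ciita, Irf1 and Nlrc5 each had their highest value in scratch-negative cells, while the alpha and beta chains, Cd74 and H2-DMb1 had theirs in scratch-positive cells. Ifng itself had 73.2 CPM in scratch-positive, 39.4 CPM in scratch-negative and 0.273 CPM in control cells of the class, the last from 1 UMI. Its UMIs lay in the C1q subset at 99.9 and 104 CPM in scratch-positive and scratch-negative cells, while monocytes had 0 and 0.70 CPM. Whether the Ifng UMIs of the C1q subset came from macrophages or from other cells grouped with them was not tested. NK cells, a usual source of interferon-gamma, had 25.8, 115 and 88.7 CPM.

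Dendritic cells are the specialists that prime T cells, and over the whole class their class II levels were close between the tumour libraries, which held the subsets in different shares. Type 2 conventional dendritic cells, which stood above the migratory subset, made 101 of 116 scratch-positive and 11 of 27 scratch-negative cells. The whole class numbered 116 scratch-positive, 27 scratch-negative and 3 control cells, at median depths of 11891, 11340 and 11137 UMIs. The 3 control cells were too few for a comparison. H2-Ab1 had 11160.2 CPM (10991.8 to 11330.6) in scratch-positive and 8976.5 CPM (8675.7 to 9285.0) in scratch-negative cells, a ratio of 1.24 (1.20 to 1.29). Cd74 was level, at a ratio of 1.02 (0.988 to 1.05). The editor had the largest ratios, 1.38 for H2-DMa (1.21 to 1.59) and 1.34 for H2-DMb1 (1.19 to 1.52), and Ciita a ratio of 0.813 (0.555 to 1.22). None of the 7 was called higher, where 7.45% of genes were, and none lower, where 8.27% were. The median log2 ratio was 0.21, against 0.04 over all genes tested. Cd74 was seen in 100% of thinned cells in both libraries, and Ciita in 22.7% of scratch-positive and 19.2% of scratch-negative cells. The median cell carried 489 and 342 UMIs of the 7 genes per 10000.

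Within the type 2 and migratory subsets of dendritic cells, Cd74 and H2-Ab1 were lower in the scratch-positive library. The type 1 subset held 6 scratch-positive and 6 scratch-negative cells, and its levels are not given here. Type 2 cells, which carry Cd209a, Clec10a and Mgl2, had 17039.7 CPM of Cd74 in 101 scratch-positive cells and 23133.0 CPM in 11 scratch-negative cells. H2-Ab1 had 12127.8 CPM (11938.1 to 12319.8) and 13729.0 CPM (13137.1 to 14340.8) in the same type 2 cells. Migratory dendritic cells, which carry Ccr7 and Fscn1, had 1809.1 CPM (1581.4 to 2060.4) in 9 scratch-positive cells and 7044.3 CPM (6556.4 to 7558.9) in 10 scratch-negative cells. H2-Ab1 had 653.5 and 1886.4 CPM in the same migratory cells. The migratory cells stood below the type 2 cells in both libraries, and lowest in the scratch-positive library. For H2-Ab1 both subsets thus ran against the class ratio of 1.24, and for Cd74 both stood below the class ratio of 1.02. With so few scratch-negative cells in each subset, no call was made. Ciita in migratory cells had 0 UMIs in the scratch-positive library and 4 in the scratch-negative library. S100a8 was present in the class at 6676 CPM in scratch-positive and 25846 CPM in scratch-negative cells, and its part in these values was not tested. Among the companions of class II, H2-DMb2 had 331 CPM in scratch-positive and 200.1 CPM in scratch-negative dendritic cells. H2-Oa and H2-Ob, the chains of the inhibitor of H2-DM, had 138 and 55.4 CPM in scratch-positive cells and 85.4 and 74.7 CPM in scratch-negative cells. Of 16 class I genes none was higher and 6 were lower in scratch-positive cells of the class, where 7.45% and 8.27% of all genes were.

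B cells gain class II as they mature, and the libraries held the stages in different numbers. The class had 30, 161 and 239 cells at median depths of 2723.5, 9391 and 6966 UMIs, so the scratch-positive values rest on few and shallow cells. Cd74 had 1881.8 CPM (1710.6 to 2065.4) in scratch-positive, 513.2 CPM (485.5 to 542.1) in scratch-negative and 1149.8 CPM (1113.1 to 1187.4) in control cells. H2-Aa had 475.8, 126.3 and 344.1 CPM and H2-Ab1 620.2, 230.6 and 409.2 CPM. For all 3 the scratch-negative library was lowest and the scratch-positive library highest, with intervals apart. Scratch-negative cells were lower than control for 6 of 7 members, where 4.43% of genes were lower, among them H2-Aa at 2.72-fold (2.40 to 3.1) and Cd74 at 2.24-fold (2.10 to 2.39). Scratch-positive cells were higher than control for 3 of 7, where 3.89% of genes were, with Cd74 at 1.64-fold (1.48 to 1.81), and lower for none, where 3.6% were. Scratch-positive over scratch-negative, 5 were higher, where 3.48% of genes were, and H2-DMb1 had under 10 UMIs.

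Within the later stage no member was called. Immature and mature B cells made 12 of 30 scratch-positive, 23 of 161 scratch-negative and 81 of 239 control cells, and pro-B and pre-B cells made the remaining 18, 138 and 158. In immature and mature B cells Cd74 had 10673.5 CPM (9644.2 to 11782.8) in scratch-positive, 11450.4 CPM (10741.8 to 12193.5) in scratch-negative and 11624.3 CPM (11241.4 to 12016.8) in control cells. All 3 intervals overlap. None of the 7 members was called between scratch-negative and control cells at this stage, where 4.42% of genes were higher and 3.23% lower, and the Cd74 ratio was 0.985 (0.917 to 1.06). In pro-B and pre-B cells Cd74 had 251.8, 129.1 and 75.9 CPM. There it was 1.70-fold higher in scratch-negative than in control cells (1.43 to 2.03), the only member called, where 2.54% of genes were higher and 2.98% lower. With equal weight for each stage, none of the 5 calls between scratch-positive and scratch-negative cells was left.

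**Figure D3:**
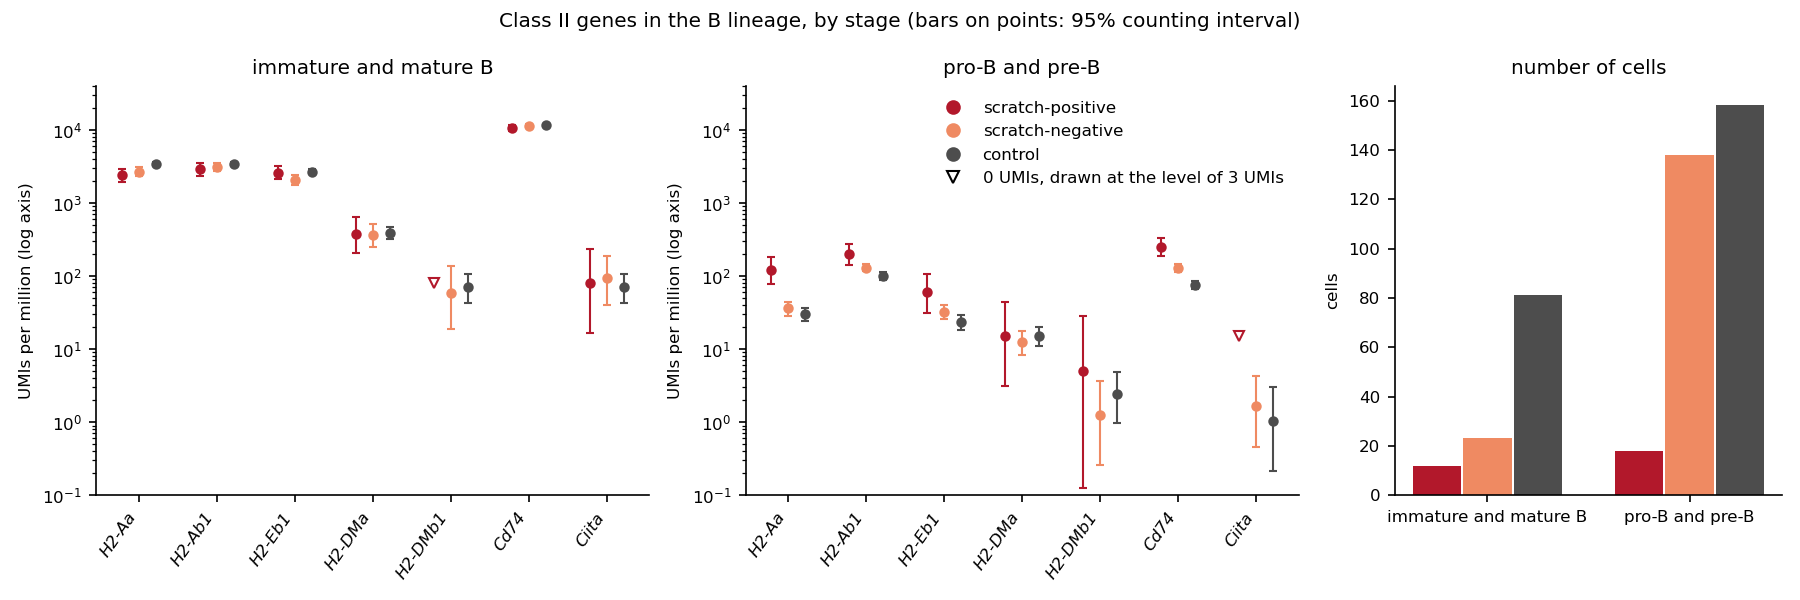
Level in CPM (log axis) of the 7 genes in immature and mature B cells and in pro-B and pre-B cells, with 95% counting intervals, and the number of cells of each stage in each library. Cd74 lies between 10673.5 and 11624.3 CPM in the first panel and between 75.9 and 251.8 CPM in the second, and the earlier stage holds most of the scratch-negative cells.

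The step between stages was large and uneven across members. In control cells the later stage exceeded the earlier by 153-fold for Cd74 (134 to 176), 116-fold for H2-Eb1 and 113-fold for H2-Aa. For H2-Ab1 the step was 34.2-fold. H2-Ab1 had 201.4, 129.5 and 100.2 CPM in scratch-positive, scratch-negative and control pro-B and pre-B cells, against 120.8, 36.0 and 30.1 CPM for H2-Aa. A UMI of H2-Ab1 was seen in 63.9% of the control pro-B and pre-B cells and a UMI of Cd74 in 22.2%, against 2.38% and 5.21% of control neutrophils. H2-Ab1 made 40.4% of the member UMIs in these control cells, and its UMIs outnumbered those of Cd74 by 1.32 to 1. In control immature and mature B cells that ratio was 0.29. The genes H2-Oa, H2-Ob and H2-DMb2 had 153, 353 and 306 CPM in scratch-negative and 130.1, 394 and 370.3 CPM in control immature and mature B cells. H2-DMb1 had 58.9 and 70.1 CPM there, so in these B cells the level of H2-DMb2 was above that of H2-DMb1, the reverse of monocytes and macrophages.

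Fibroblast and periosteal cells held little class II RNA, and H2-Ab1 stood apart from the other members. The class had 418, 550 and 48 cells at median depths of 28576.5, 29749.5 and 10840 UMIs. H2-Ab1 had 25.03 CPM (22.3 to 28.0) in scratch-positive, 117.9 CPM (112.8 to 123.1) in scratch-negative and 26.3 CPM (14.4 to 44.0) in control cells. The scratch-negative library stood far above the other libraries. Its partner chain H2-Aa had 11.0, 7.60 and 26.3 CPM, lowest in the scratch-negative library, and Cd74 had 26.3 CPM (23.5 to 29.4), 19.9 CPM (17.8 to 22.1) and 63.8 CPM (44.2 to 89.1). Ciita was found with 3, 3 and 1 UMIs. H2-Ab1 was therefore the only member called higher in scratch-negative than in control cells, at 4.49-fold (2.67 to 8.23), where 8.08% of genes were. In the same comparison 4 members were lower, where 16.2% of genes were: H2-Aa, H2-Eb1, H2-DMb1 and Cd74, by 2.60-fold to 3.70-fold. The control values rest on few cells, since 2 of the 48 held 10 or more member UMIs. Scratch-positive over control, H2-Aa and Cd74 were lower, where 19.3% of genes were, but neither was when no doublets were removed. Scratch-positive over scratch-negative, H2-Ab1 was 4.71-fold lower (4.18 to 5.33), where 16.4% of genes were, and H2-Eb1 was 2.33-fold higher (1.80 to 3.03), where 11.3% were.

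The 2 clusters of these cells differed in H2-Ab1. Cluster 27, led by Crabp1, Tagln and Lox, held 306 scratch-positive and 351 scratch-negative cells and no control cell. There H2-Ab1 had 27.4 CPM (24.3 to 30.8) in scratch-positive and 142.5 CPM (136.3 to 148.9) in scratch-negative cells. The scratch-positive level was 5.20-fold lower (4.58 to 5.92), where 15.5% of genes were lower. A UMI of H2-Ab1 was found in 30.1% of scratch-positive and 70.9% of scratch-negative cells of the cluster, and in 4.26% and 33.2% after thinning. Cd74 had 25.9 and 22.1 CPM, a ratio of 1.17 (0.992 to 1.39). Cluster 13, led by Ptn, Sfrp2 and Clec3b, held all control cells, and there H2-Ab1 had 13.9, 16.6 and 26.3 CPM with overlapping intervals. Scratch-negative cells were not higher than control within it, at a ratio of 0.633 (0.348 to 1.23), where 5.84% of genes were higher. H2-Aa, H2-Eb1 and Cd74 of cluster 13 were lower than control in both tumour libraries, where 13.6% of genes were lower in the scratch-positive and 7.1% in the scratch-negative library, and no member was higher in the scratch-positive library, where 9.3% were. Scratch-positive over scratch-negative Cd74 was 2.58-fold higher, where 5.59% were.

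**Figure D4:**
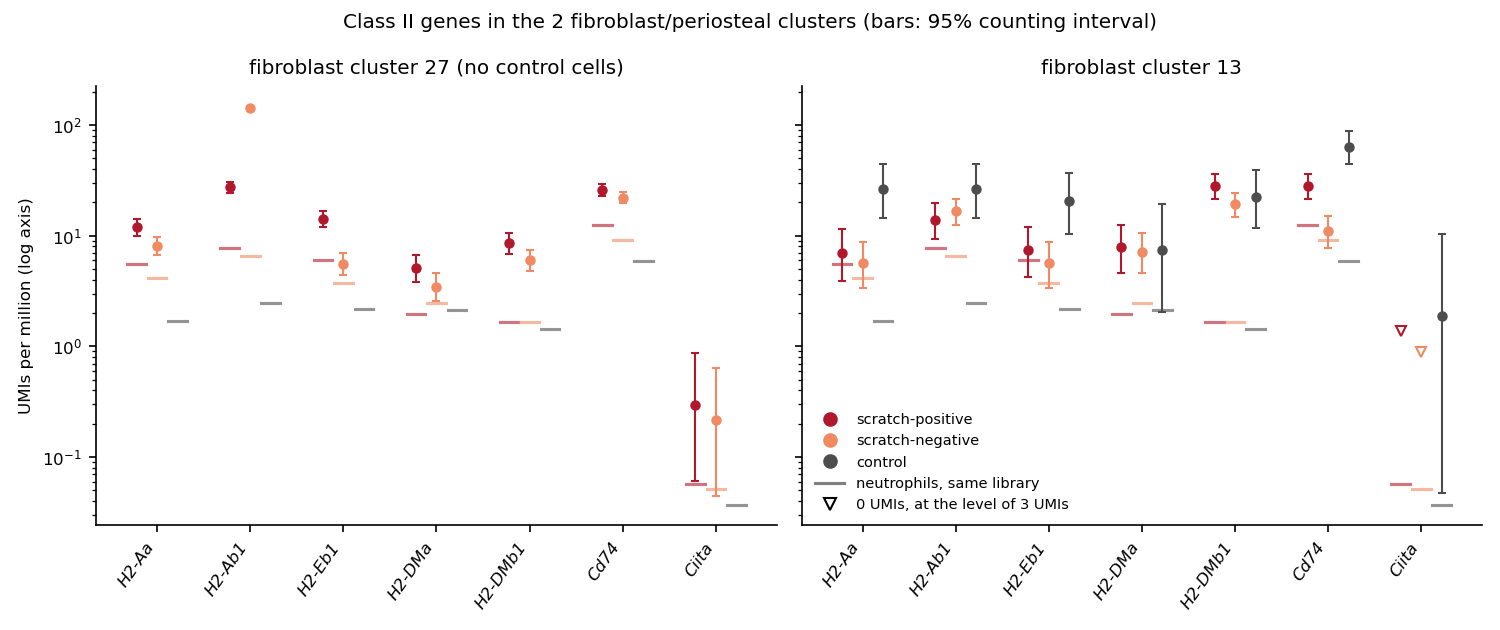
Level in CPM (log axis) of the 7 genes in fibroblast clusters 27 and 13 by library, with 95% counting intervals; horizontal ticks give neutrophils of the same library, and open triangles mark 0 UMIs at the level of 3 UMIs. H2-Ab1 in scratch-negative cells of cluster 27 stands at 142.5 CPM, above every other point.

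H2-Ab1 made 71.9% of the member UMIs in scratch-negative fibroblasts, against 26.8% in scratch-positive fibroblasts, and outnumbered Cd74 by 5.92 to 1 (5.28 to 6.66). In scratch-negative macrophages that ratio was 0.51. Over neutrophils of the same library, H2-Ab1 was 18.1-fold higher (16.2 to 20.3), while H2-Aa, H2-Eb1 and Cd74 were 1.82-fold, 1.48-fold and 2.17-fold higher. A UMI of Ptprc, a C1q gene or Cd79a, which mark immune cells, was found in 30.9% of scratch-negative fibroblasts with H2-Ab1 and in 29.1% of those without. Leaving out all cells with such a UMI, a choice made after seeing the data, gave a ratio of 18.2 (6.23 to 88.6) for H2-Ab1 in scratch-negative over control, and H2-Ab1 was then 7.66-fold lower in scratch-positive than in scratch-negative cells. The ratio to control rests on very few UMIs, since even before that step control held 14 H2-Ab1 UMIs in 4 of 48 cells. All control cells lay in cluster 13, where scratch-negative cells were not higher than control, as given above. S100a8 had 1437, 12757 and 12999 CPM in the class.

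Other genes of these fibroblasts moved with H2-Ab1 in part. The class I gene H2-Q7 had 11.1 CPM in scratch-positive, 81.7 CPM in scratch-negative and 13.1 CPM in control cells, and H2-T23 22.1, 133 and 91.9 CPM. Spi1, which encodes the myeloid factor PU.1, had 10.7, 33.3 and 13.1 CPM. Of 16 class I genes, 6 were higher and 2 lower in scratch-negative than in control cells, where 8.08% and 16.2% of all genes were. None was higher and 8 were lower in scratch-positive than in scratch-negative cells, where 11.3% and 16.4% were. Of 16 interferon-gamma axis genes, 15 could be compared, and 9 were higher and 1 lower in scratch-negative than in control cells. In scratch-positive cells 7 were higher and 2 lower than control, where 12.7% of all genes were higher and 19.3% lower. The chemokine gene Cxcl9 had 126, 302 and 20.6 CPM.

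Tumour cells held little class II RNA, and their levels were higher in the scratch-negative library. They numbered 3627 scratch-positive and 203 scratch-negative cells, with median depths of 64264 and 71729 UMIs, and control had none. Cd74 had 7.68 CPM (7.33 to 8.03) in scratch-positive and 56.1 CPM (52.3 to 60.0) in scratch-negative cells. H2-Ab1 had 5.14 CPM (4.86 to 5.43) and 17.6 CPM (15.6 to 19.9). H2-DMa had 1.12 and 10.8 CPM, and H2-DMb1 1.94 and 14.8 CPM. Ciita had 0.257 CPM (0.198 to 0.329) and 3.03 CPM (2.20 to 4.07), from 64 and 44 UMIs. The intervals were apart for each gene, and all 7 members were lower in scratch-positive cells, where 12.7% of all genes tested were lower and 3.52% higher. The fold was 11.8 for Ciita (7.84 to 17.6), 9.68 for H2-DMa, 7.61 for H2-DMb1, 7.30 for Cd74 (6.72 to 7.93) and 3.43 to 4.49 for the alpha and beta chains.

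In CPM, scratch-positive tumour cells as a whole stood under the neutrophils of the same library for 5 members. The tumour cells were far deeper, so this order in CPM need not hold for UMIs per cell. Cd74 was at 0.61 times the neutrophil level and H2-Aa, H2-Ab1, H2-Eb1 and H2-DMa between 0.515 and 0.658 times. H2-DMb1 was at 1.16 times (0.799 to 1.76). Ciita was at 4.48 times (0.775 to 179.6), a ratio that rests on 1 UMI in neutrophils. In scratch-negative tumour cells Cd74 was 6.12-fold, H2-DMb1 8.95-fold and Ciita 59.5-fold (19.1 to 299.6) above neutrophils. The signal was sparse, with 10 or more member UMIs in 33 of 3627 scratch-positive cells (0.910%) and 21 of 203 scratch-negative cells (10.3%). After thinning, Cd74 was seen in 1.77% and 6.53% of cells, against 3.30% and 2.91% of neutrophils. Immune RNA moved with this result. S100a8 had 348 CPM in scratch-positive and 10941 CPM in scratch-negative tumour cells, and a UMI of Ptprc, a C1q gene or Cd79a was found in 31.4% and 48.3% of them. Leaving out those cells, a choice made after seeing the data, kept 4 members lower in scratch-positive cells, where 9.84% of genes were lower: Ciita by 10.6-fold, H2-DMa by 4.35-fold, H2-DMb1 by 3.99-fold and Cd74 by 2.14-fold. H2-Aa, H2-Ab1 and H2-Eb1 then had ratios of 1.12, 0.890 and 0.876.

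Ciita and the editor had their highest levels among tumour cells in cluster 16. This cluster, led by the interferon-inducible genes Iigp1, Gbp4 and Igtp and with Krt8 and Krt18 detected, held 216 scratch-positive and 149 scratch-negative cells. Within the scratch-positive library it exceeded the other tumour cells 27.3-fold for Ciita (16.02 to 47.7), 14.0-fold for H2-DMb1, 8.88-fold for H2-DMa and 5.11-fold for Cd74. The chains differed less, by 1.82-fold for H2-Aa, 1.84-fold for H2-Ab1 and 2.26-fold for H2-Eb1. It held 41 of the 64 Ciita UMIs of scratch-positive tumour cells, 102 of 278 for H2-DMa and 230 of 482 for H2-DMb1, so most editor UMIs of these tumour cells lay outside it. Cd74 in these scratch-positive cells had 31.3 CPM and H2-DMb1 15.1 CPM, against 12.6 and 1.67 CPM in neutrophils. In the scratch-negative library the cluster exceeded the other tumour cells 4.52-fold for Ciita (1.44 to 22.8) and 1.06-fold for H2-Ab1. Cluster 16 made 216 of 3627 scratch-positive and 149 of 203 scratch-negative tumour cells. Inside the cluster, Ciita had 2.69 CPM (1.93 to 3.65) in scratch-positive and 3.76 CPM (2.70 to 5.10) in scratch-negative cells, with overlapping intervals. H2-DMb1 likewise overlapped, at 15.1 CPM (13.2 to 17.2) and 17.7 CPM (15.3 to 20.4). The remaining 5 members were lower in scratch-positive cells, where 9.8% of genes were lower and 2.97% higher, by 1.99-fold to 2.74-fold. Ciita made 3.50% and 2.57% of the member UMIs of the cluster, against 0.14% and 0.28% in macrophages of the same libraries.

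In cluster 25, with 1060 scratch-positive and 27 scratch-negative cells, 3 members were lower in scratch-positive cells, where 10.5% of genes were lower and 5.47% higher. Cd74 there had 7.04 and 20.3 CPM.

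**Figure D5:**
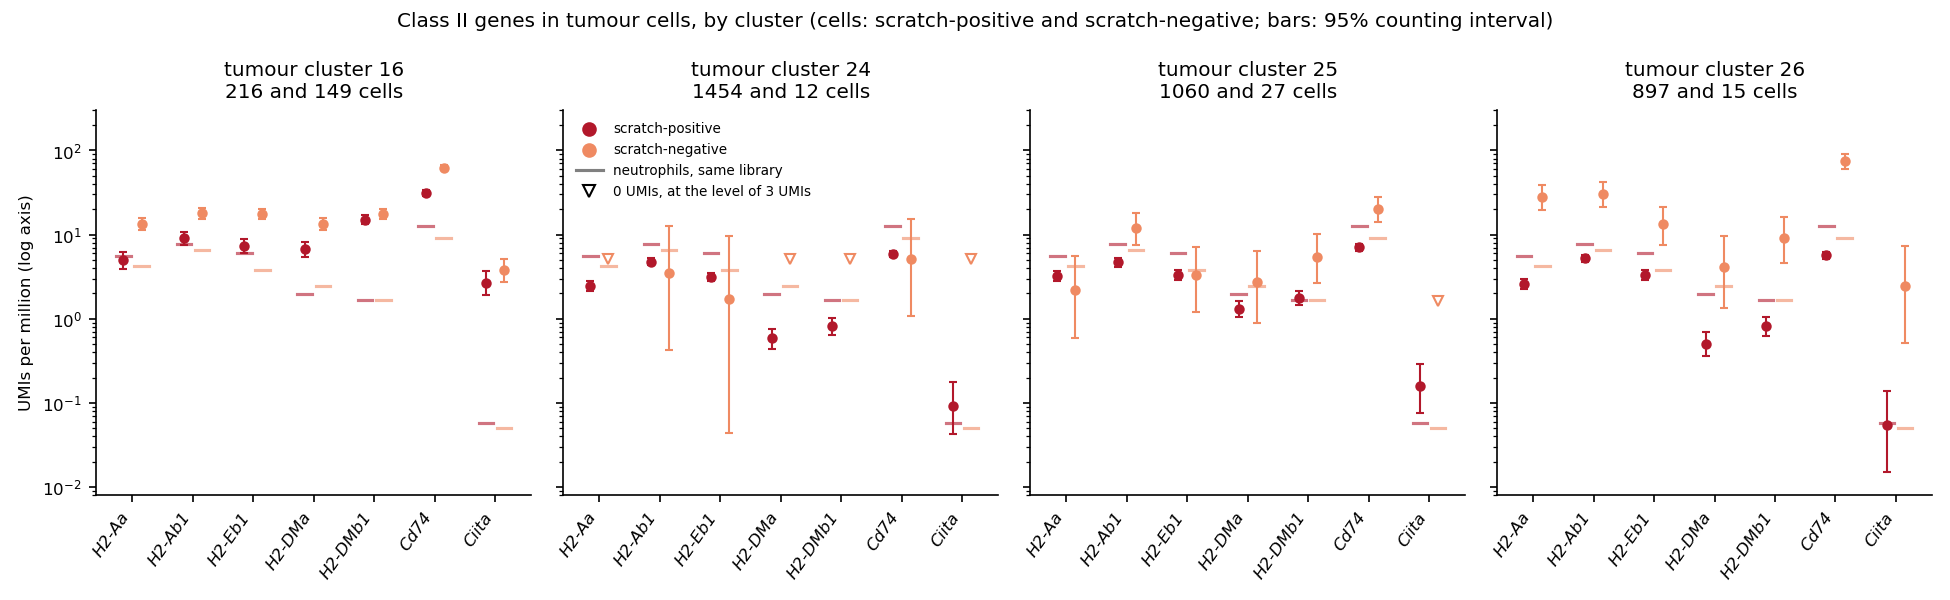
Level in CPM (log axis) of the 7 genes in tumour clusters 16, 24, 25 and 26 by library, with 95% counting intervals; ticks give neutrophils of the same library, and open triangles mark 0 UMIs at the level of 3 UMIs. In cluster 16 Ciita stands at 2.69 and 3.76 CPM in both libraries, while in clusters 24, 25 and 26 scratch-positive Ciita lies at or under 0.16 CPM.

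Class I and interferon-gamma axis genes were also lower in scratch-positive tumour cells. Of 16 class I genes, 14 were lower and none higher in scratch-positive tumour cells, and of 16 interferon-gamma axis genes 12 were lower and none higher, where 12.7% of all genes were lower and 3.52% higher. The median log2 ratio was −2.18 for class I and −3.10 for the interferon-gamma axis. These are values of the whole class, in which cluster 16 made 216 of 3627 scratch-positive and 149 of 203 scratch-negative cells. Within cluster 16, 8 of 16 class I genes were lower, with a median of −0.61, and 3 of 15 interferon-gamma axis genes, with a median of −0.22, where 9.8% of all genes were lower. Within cluster 25 it was 10 of 15 class I genes and 6 of 14 interferon-gamma axis genes, where 10.5% were lower. None was higher in either cluster. The genes that led cluster 16, Iigp1, Gbp4 and Igtp, are themselves on the interferon-gamma axis list. The values of that list within cluster 16 are therefore not independent of how the cluster was drawn. The immunoproteasome gene Psmb9 over the whole class had 9.67 CPM in scratch-positive and 130 CPM in scratch-negative cells, and Gbp2 had 37.0 and 529 CPM. Nlrc5 had 0.696 and 7.93 CPM. Rfx5 had overlapping intervals, at 2.53 CPM (2.34 to 2.74) and 2.48 CPM (1.74 to 3.44).

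Osteoclasts, the cells that resorb bone, come from the monocyte lineage. They numbered 876, 84 and 26 cells at median depths of 36300.5, 41176 and 39931.5 UMIs. Cd74 had 168.4 CPM (164.0 to 173.0) in scratch-positive, 600.6 CPM (576.4 to 625.5) in scratch-negative and 838.3 CPM (782.1 to 897.5) in control cells. H2-Ab1 had 53.2, 179.4 and 207.1 CPM. The scratch-positive library was lowest for both, with its interval apart from the others. Scratch-positive over scratch-negative, 4 members were lower, where 9.93% of genes were, and none higher, where 8.7% were: H2-Aa by 4.94-fold, H2-Eb1 by 4.59-fold, Cd74 by 3.57-fold and H2-Ab1 by 3.37-fold. H2-DMb1 was level, at 57.5 and 53.8 CPM and a ratio of 1.07 (0.925 to 1.24). The libraries differed more in the upper tail of cells than in the median cell. The median scratch-positive and scratch-negative osteoclast carried 1.04 and 1.71 UMIs of the 7 genes per 10000, and the cell at the 90th percentile 7.69 and 27.3. Cells with 10 or more member UMIs made 20.1% of scratch-positive and 44.0% of scratch-negative osteoclasts. Control held under 30 osteoclasts, so no ratio to control is given. S100a8 had 2202, 21746 and 17245 CPM in the class, and its part in these differences was not tested.

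Likeness of other genes to the 7 members was measured as Pearson's r with the mean log profile of the members over 30 profiles of a class in a library, among 14603 genes. The 10 highest non-members were Gm6377 (0.934), Pkib (0.923), Ly86 (0.903), Pld4, Slamf9, Cd180, Fgd2, Tifab, Rnase6 and Cd86 (0.861). Ctss ranked 14th at 0.839. Rfx5 reached 0.197. Over all kept cells, Cd74 had 283, 324 and 157 CPM in the scratch-positive, scratch-negative and control libraries, H2-Ab1 157, 175 and 63.8 CPM, and Ciita 1.35, 2.42 and 0.956 CPM.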

How the data were processed

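Single-cell RNA was captured with 10x 3′ v3.1 chemistry and sequenced on DNBSEQ-G400, per the labels' protocols. The deposited values are counts of unique molecular identifiers per gene and cell, written by Cell Ranger, for which the file headers give version 6.1.2; the submitters' processing notes name the build mm10. Aligner settings and filters are not given in the sources used here. Total UMIs were 395654008 in the scratch-positive, 167623741 in the scratch-negative and 100089008 in the control library.

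Barcodes with under 500 genes (335, 325 and 887) or over 10% mitochondrial UMIs (204, 125 and 77) were left out. Scrublet (expected rate 0.06) marked 6.95%, 0.047% and 0.067% of barcodes by its own threshold, which had not worked in 2 libraries, so the highest scores were removed at 0.8% per 1000 barcodes (723, 580 and 449). This left 22194 of 25511 barcodes. Kept barcodes shared between libraries numbered 23, 15 and 12. Cells were scaled to 10000 UMIs and clustered with scanpy 1.11.5 (2000 variable genes, 30 components, 15 neighbours, Leiden resolution 1.0) without 11 class II genes, and clusters were named from marker lists. A second round split the monocyte/macrophage and B-lineage cells.

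UMIs were summed per class and library. With 1 library per group there is no test: levels carry exact 95% Poisson intervals, ratios exact conditional binomial intervals and shares exact Clopper-Pearson intervals, all for counting error only. Calls needed 1.5-fold, an interval on 1 side of 1, 10 UMIs in the 2 libraries and, for the main classes, 30 cells in each. For dendritic cells the minimum was lowered to 20 after the data were seen. A minimum of 20 cells was also used for subsets, single clusters, neutrophils and the sets with cells left out. Shares were compared after thinning to 3000 UMIs per cell. On simulated counts (12656 genes, monocyte/macrophage cells, scratch-positive over scratch-negative) the rule recovered 100% of changed genes and called 1.29% of unchanged genes. With 1 library per group, these rates are not error rates of the real comparisons. Members and lists were chosen with earlier results of these data known. Of the lists (other class II genes, class II transcription factors, antigen processing, co-stimulation and maturation, class I presentation, interferon-gamma axis, class II receptors on T cells and their regulators), up to 4 genes per class and comparison could be named, those of the largest ratio with at least 100 UMIs, besides all members and a fixed set of companions. S100a8, Ptprc, the leading genes of clusters and Ifng by subset were named after their values were seen. Columns of other samples numbered 0. H2-Ea and its pseudogene were not analysed here.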

Additional observations from a re-analysis of the deposited data

Results flagged for a closer look

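Several members moved in opposite directions in 2 cell classes under the same contrast, given here as log2 ratios. With 1 library per group the difference between the classes was not tested in any of these cases, and the classes share their libraries.

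Scratch-positive over control, H2-Aa stood at 0.96 in monocytes and macrophages and −1.25 in fibroblast/periosteal cells. Cd74 stood at 0.99 in monocytes and macrophages and 0.71 in B-lineage cells, against −1.27 in fibroblast/periosteal cells.

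Scratch-negative over control, monocytes and macrophages had 0.83 for H2-Aa, 1.0 for H2-Ab1, 0.83 for H2-Eb1, 0.95 for H2-DMb1 and 0.74 for Cd74. B-lineage cells had −1.44 for H2-Aa, −0.83 for H2-Ab1, −1.43 for H2-Eb1, −1.39 for H2-DMb1 and −1.16 for Cd74. Fibroblast/periosteal cells had −1.78 for H2-Aa, −1.88 for H2-Eb1, −1.37 for H2-DMb1 and −1.68 for Cd74. H2-Ab1 was the member that ran the other way in them, at 2.16.

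Scratch-positive over scratch-negative, B-lineage cells had 1.91 for H2-Aa, 1.43 for H2-Ab1, 2.18 for H2-Eb1, 1.55 for H2-DMa and 1.87 for Cd74. Tumour cells had −2.17 for H2-Aa, −1.78 for H2-Ab1, −2.09 for H2-Eb1, −3.27 for H2-DMa, −2.93 for H2-DMb1 and −2.87 for Cd74. Osteoclasts had −2.3 for H2-Aa, −1.75 for H2-Ab1, −2.2 for H2-Eb1 and −1.83 for Cd74. Fibroblast/periosteal cells had 1.21 for H2-Eb1 and −2.23 for H2-Ab1, and monocytes and macrophages had 0.72 for H2-DMb1.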

How the results depend on the processing

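With 1 library per group no replicate could be left out, and no library-level error is known. No paired analysis was possible because each group held 1 library and no test was run. Depth limits Ciita most, and control dendritic cells, osteoclasts and fibroblasts are few. Of the counts of members called, 319 recomputed values were within 1.5 times the main count and 51 were not. The cause was not tested. Among single values, 887 stayed close, 379 moved and 19 changed direction.

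In monocytes and macrophages, the 5 members higher in scratch-positive than in control became 3 at 2-fold and 1 with equal weight per cluster, which also gave 1 lower in place of 0. The 5 higher in scratch-negative than in control became 0 at 2-fold and 2 with up to 20% mitochondrial UMIs or with class II genes kept in the clustering. The 1 higher in scratch-positive than in scratch-negative became 0 at 2-fold, with at least 200 genes, with equal weight, with median-of-ratios scaling and without cells over 5% S100a8 and S100a9. It became 2 within the monocyte or Arg1 subset, 4 with no doublets removed and 5 with Scrublet's own threshold. The 1 lower became 0 at 2-fold, at Leiden resolution 0.6, with either doublet setting and within the monocyte or Arg1 subset. In dendritic cells 0 higher became 1 with Scrublet's own threshold, at least 1000 genes or the mean over cells, and 0 lower became 1 with at least 200 genes or equal weight.

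In B-lineage cells the 6 lower in scratch-negative than in control became 0 with equal weight per cluster and within either stage, and 0 higher became 1 in pro-B and pre-B cells. The 3 higher in scratch-positive than in control became 0 at 2-fold or with equal weight and 1 with at least 200 genes, and 0 lower became 1 with equal weight or the mean over cells. The 5 higher in scratch-positive than in scratch-negative became 0 with equal weight.

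In fibroblast/periosteal cells the 1 higher in scratch-negative than in control became 0 with equal weight or within cluster 13, and the 4 lower became 2 with up to 20% mitochondrial UMIs and 1 with no doublets removed. The 2 lower in scratch-positive than in control became 4 at Leiden resolution 0.6 or with equal weight and 0 with no doublets removed, which also gave 1 higher in place of 0. Scratch-positive over scratch-negative, the 1 higher became 0 with Scrublet's own threshold or up to 20% mitochondrial UMIs, 2 with equal weight and 3 after subtracting the mean of neutrophils, and the 1 lower became 0 within cluster 13. In tumour cells the 7 lower became 3 within cluster 25 and 4 without cells holding Ptprc, C1q or Cd79a UMIs.

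Log2 ratios that changed direction were these. In pro-B and pre-B cells, scratch-negative over control, they were 0.77 for Cd74, 0.26 for H2-Aa, 0.37 for H2-Ab1 and 0.47 for H2-Eb1. H2-DMb1 in B-lineage cells was 0.045 with at least 200 genes in that comparison. With equal weight, B-lineage scratch-positive over control gave −0.12 for Cd74, −0.25 for H2-Ab1 and −0.05 for H2-Eb1, and scratch-positive over scratch-negative gave −0.10 for Cd74, −0.17 for H2-Aa and −0.11 for H2-Ab1. Equal weight also gave −0.14 for H2-Eb1 in monocytes and macrophages, scratch-positive over control, and −0.66 for H2-Ab1 in fibroblast/periosteal cells, scratch-negative over control, the same value as cluster 13. With no doublets removed, fibroblast/periosteal scratch-positive over control was 0.076 for Cd74 and 0.063 for H2-Aa. Ciita was 0.40 in Arg1 macrophages, scratch-positive over scratch-negative. H2-Aa in tumour cells was 0.55 in cluster 25 and 0.16 without cells holding Ptprc, C1q or Cd79a UMIs.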

Other observations

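Some class II genes also stood out from the other members in classes outside the comparisons. Control chondrocytes, which make cartilage, had 160.5 CPM of H2-DMb1 (80.1 to 287.1) in 71 cells. Control erythroid cells held H2-Ab1 at 11.2 CPM and Cd74 at 1.42 CPM, so H2-Ab1 outnumbered Cd74 by 7.88 to 1 (4.74 to 13.9), while the scratch-negative ratio was 1.09. H2-DMa made 45.5% and H2-Ab1 42.7% of the member UMIs of control erythroid cells, and 24.1% and 30.4% in the scratch-negative library. NK cells had H2-DMa at 25.8, 23.9 and 31.8 CPM in the scratch-positive, scratch-negative and control libraries. Plasma cells, which end the B lineage, had 1649 CPM of Cd74 in 3 scratch-positive, 2372 CPM in 5 scratch-negative and 2055 CPM in 3 control cells, and Cd74 made between 75.5% and 85.0% of their member UMIs.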
